A study of Mus musculus with 8 samples.

Results

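Assembled transcripts without a gene name are the RNA that a transcript assembler built from the reads at places where it could attach no annotated gene. The gene tables deposited for the 8 libraries held 47394 rows without a gene name. Their intervals merged over the libraries into 15968 loci. A locus was kept when it was at least 500 bp long, reached at least 1 FPKM in at least 2 libraries and overlapped no named row in any library. FPKM are fragments scaled by transcript length and by the number of fragments mapped in the library. This left 1621 unnamed loci, beside 21993 named genes or groups of joined genes. The loci were thus chosen by their measured FPKM, and how many of them have signal is a property of the choice.

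The study set mouse pluripotent stem cells of different origin side by side, with 2 libraries in each of 4 groups. CDGC1 and CDGC6 are lines derived from early teratoma cells of the newborn testis. Both have the genotype Dnd1ter/ter and carry the Oct4deltaPE-GFP reporter on a 129Sv background, and they were at passages 15 to 18. The control is the wild-type embryonic stem cell (ESC) line E14tg2a of strain 129/Ola at passages 10 to 12, and the Dnd1-KD ESC share its strain, WT genotype and passages. Every group grew in DMEM with serum and LIF, the cytokine that holds mouse ESC undifferentiated. Each derived line is a single line. Origin, strain, genotype, transgene and passage all differ between the derived lines and the control and cannot be told apart. How Dnd1 was knocked down is not given in the sources used here. Separate cultures are not stated for the 2 libraries of any group, so p-values measure only how far these libraries spread.

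Dnd1 encodes an RNA-binding protein that germ cells need, and its loss is known for testicular teratomas in 129 mice. Unnamed assembled RNA can be a long non-coding RNA (lncRNA), a transcribed pseudogene, a stretch of intron, or RNA that continues past the annotated 3′ end of a gene. ESC are known to transcribe many lncRNAs, among them the pluripotency-associated transcripts named Platr, and much of their intergenic RNA lies beside genes.

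Dnd1 itself could not be used to check the labels. Its own row was listed at 0 in 6 libraries, and in the 2 Dnd1-KD libraries it had no row of its own because the assembler had joined it with its neighbour Hars. The 5 pluripotency markers Pou5f1, Sox2, Nanog, Sall4 and Lin28a all reached 1 FPKM, with summed levels of 695 to 843 FPKM in Dnd1-KD and 1397 to 1837 FPKM in the other groups. Pou5f1 made up most of each sum. Pou5f1, Nanog and Lin28a were lowest in Dnd1-KD. Sox2 was at 75.1 and 79.6 FPKM in CDGC1, 98.4 and 76.8 in Dnd1-KD, and 158 and 167 in control. Sall4 was at 46.3 and 37.3 FPKM in Dnd1-KD and 39.4 to 47.0 in the derived lines. The 4 germ cell markers summed to 0.0267 and 0.0928 FPKM in CDGC1 and to 12.2 to 28.7 FPKM elsewhere. The 8 fibroblast markers summed to 6.51 to 10.4 FPKM in both kinds of ESC and to 24.2 to 33.9 FPKM in the derived lines, and their part in the results was not tested. Fragments implied by the FPKM intervals numbered between 10.7 M and 18.0 M in each library.

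Of the 800 annotated gene symbols that lie over the unnamed loci, 350 have a promoter in the RefSeq table used here (GRCm38.p6, the mm10 build of the files). The promoters of 6 non-coding genes described below are shown, from 250 bases before to 50 bases after the start, 5′ to 3′ on the gene's strand. Gm35082 is covered by 2 neighbouring loci that rose in CDGC1, and AU020206 and Platr3 were among the most abundant lncRNAs with no short assembled rows. Gm33460 lies beside Eomes, and Gm32856 and Gm21814 hold the octamer that POU factors such as Oct4 recognise. Capitals mark matches on either strand to 4 motifs, which are the octamer ATGCAAAT, the TATA box TATAAA, the CCAAT box CCAAT and the GC box GGGCGG.
Gm35082 (chr7:100674771-100675070, plus strand): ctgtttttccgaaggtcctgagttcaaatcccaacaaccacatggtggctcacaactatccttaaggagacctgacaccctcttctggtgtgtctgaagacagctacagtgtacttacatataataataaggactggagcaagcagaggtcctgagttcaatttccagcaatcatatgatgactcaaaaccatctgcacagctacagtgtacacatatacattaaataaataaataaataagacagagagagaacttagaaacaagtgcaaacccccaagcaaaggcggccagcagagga
AU020206 (chr7:75782071-75782370, minus strand): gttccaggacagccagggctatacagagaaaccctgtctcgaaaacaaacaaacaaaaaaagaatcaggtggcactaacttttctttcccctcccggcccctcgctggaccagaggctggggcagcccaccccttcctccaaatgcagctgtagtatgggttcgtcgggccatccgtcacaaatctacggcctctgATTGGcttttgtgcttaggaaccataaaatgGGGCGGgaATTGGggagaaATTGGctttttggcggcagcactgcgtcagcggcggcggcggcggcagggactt
Platr3 (chr2:135646273-135646572, plus strand): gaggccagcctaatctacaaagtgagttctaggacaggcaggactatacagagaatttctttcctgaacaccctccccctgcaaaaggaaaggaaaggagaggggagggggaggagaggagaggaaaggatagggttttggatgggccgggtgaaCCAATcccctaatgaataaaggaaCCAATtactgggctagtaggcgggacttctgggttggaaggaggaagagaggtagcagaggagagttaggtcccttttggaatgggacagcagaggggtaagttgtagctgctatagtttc
Gm33460 (chr9:118489730-118490029, minus strand): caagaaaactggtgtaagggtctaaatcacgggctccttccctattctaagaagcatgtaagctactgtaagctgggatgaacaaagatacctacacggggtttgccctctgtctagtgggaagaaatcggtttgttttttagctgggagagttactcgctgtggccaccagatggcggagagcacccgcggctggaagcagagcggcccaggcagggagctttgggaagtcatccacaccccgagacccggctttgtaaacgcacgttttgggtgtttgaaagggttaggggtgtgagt
Gm32856 (chr8:129263363-129263662, plus strand): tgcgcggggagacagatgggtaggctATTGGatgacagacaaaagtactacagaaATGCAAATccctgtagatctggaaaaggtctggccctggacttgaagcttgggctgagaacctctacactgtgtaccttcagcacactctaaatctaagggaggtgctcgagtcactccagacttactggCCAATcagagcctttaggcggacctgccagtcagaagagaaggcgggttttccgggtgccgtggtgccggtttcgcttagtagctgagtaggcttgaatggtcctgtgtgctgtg
Gm21814 (chr6:149565832-149566131, plus strand): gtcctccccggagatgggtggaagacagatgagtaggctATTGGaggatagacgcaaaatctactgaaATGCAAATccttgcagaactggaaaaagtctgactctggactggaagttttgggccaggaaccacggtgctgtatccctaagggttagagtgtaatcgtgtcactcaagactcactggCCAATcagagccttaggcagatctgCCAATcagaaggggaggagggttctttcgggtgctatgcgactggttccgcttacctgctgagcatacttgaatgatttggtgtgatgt

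No match to these motifs lay in the windows of Gm35082 and Gm33460. AU020206 had 3 CCAAT boxes and 1 GC box, with 15 CpG dinucleotides in 300 bases against a median of 7 over all promoters. Gm32856 and Gm21814 each had 1 octamer, with 2 and 3 CCAAT boxes. Their 2 promoters were identical at 79.3% of 280 aligned positions, and no other pair among the 6 exceeded 64.1%. The octamer was found in 1.74% of all 32851 promoters and in 4 of the 115 promoters of lncRNAs over unnamed loci (3.48%). CCAAT was found in 37.4% of all promoters and 44.3% of those lncRNA promoters, GGGCGG in 35.7% and 20%, and TATAAA in 13.6% and 12.2%. A match describes the letters only.

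Most of the unnamed loci were short and lay close to a named gene. Their median length was 1359 bp, with quartiles of 803 and 2639 bp, and 142 were longer than 10 kb. Against the GENCODE vM21 annotation of the same build, 763 (47.1%) lay between genes, 235 (14.5%) over an lncRNA exon, 125 (7.71%) only in introns and 81 (5.0%) over a pseudogene. A further 315 (19.4%) lay over exons of coding genes that the tables name elsewhere, such as 3′ ends beyond the named row, and 100 (6.17%) over coding genes that the tables do not name. The median distance to the nearest named gene was 2561.5 bp, and 967 loci lay within 5 kb. Distances run to the gene's named row, and 289 loci lay over a GENCODE exon of their nearest named gene. Within 5 kb, 724 were downstream of the gene and 209 upstream (77.6% downstream), and within 100 bp 160 and 34 (82.5% downstream). Beyond 50 kb the sides were 95 and 118 (44.6% downstream). Chromosomes 2, 7 and 4 held the most, with 135, 129 and 108 loci. Per 100 named genes tested, the autosomes ranged from 11.1 on chromosome 11 to 18.6 on chromosome 12.

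**Figure D1:**
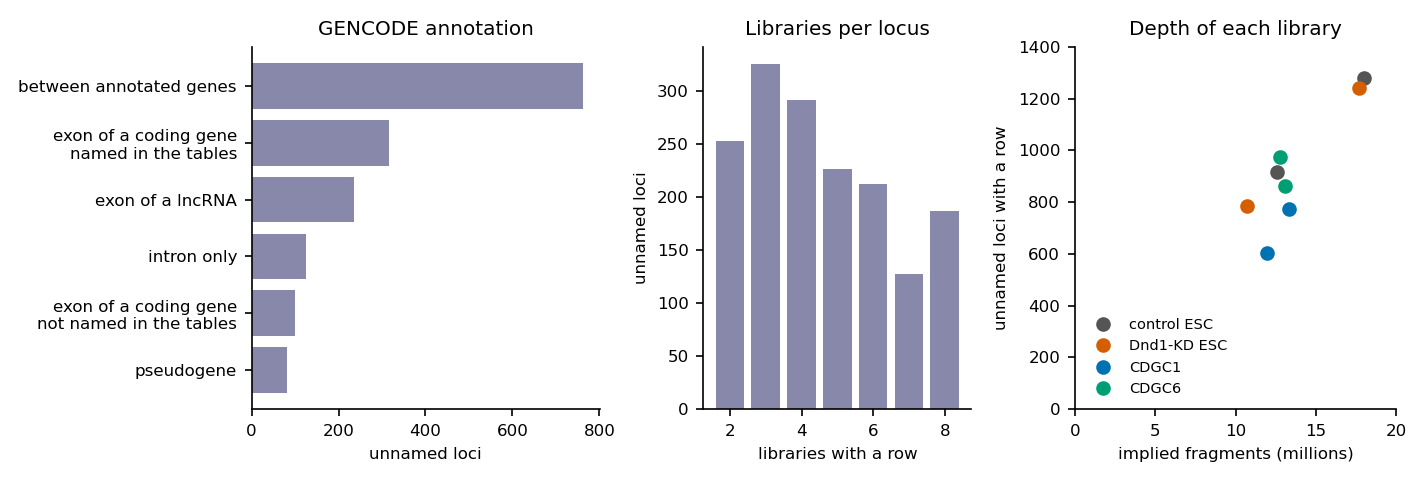
Left, number of unnamed loci by GENCODE class. Middle, number of loci by how many of the 8 libraries list them, with 253 in 2 libraries and 187 in all 8; right, loci with a row in each library against the implied fragments (M), where the 2 deepest libraries, at 17.7 M and 18.0 M, list 1240 and 1280 loci.

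Whether an unnamed locus was listed at all varied between the libraries of 1 group. Each library was assembled separately, and a locus that was not assembled has no row and was set to 0. A group without any row then shows no spread. This lowers the spread that the fit shares over the groups, so the p-values given below for such loci can be too small. The 2 deepest libraries, the first of control and the first of Dnd1-KD, listed 1280 and 1240 of the 1621 loci, and their partners 915 and 787. The CDGC1 libraries listed 602 and 774, and the CDGC6 libraries 861 and 973. Both libraries of a group had a row for 821 loci in control, 716 in Dnd1-KD, 712 in CDGC6 and 520 in CDGC1. Rows in all 4 libraries of a pair of groups and in no other were found for 46 loci in Dnd1-KD and control and 18 in CDGC6 and control. The remaining pairs had 6 (CDGC1 and Dnd1-KD), 5 (CDGC1 and CDGC6), 5 (CDGC1 and control) and 4 (CDGC6 and Dnd1-KD). In bulk RNA, fewer cells that transcribe a locus and less RNA per cell cannot be told apart.

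Levels of the unnamed loci also repeated less closely than those of named genes. Where both libraries of a group had a value, the median difference between them was taken on the log2 scale. It was 0.65 to 0.82 for unnamed loci, depending on the group, and 0.06 to 0.18 for named genes. These medians cover 456 to 712 unnamed loci per group, fewer than had rows in both libraries, and 10163 to 10941 named genes. The loci were low, with median listed levels of 1.72 to 3.91 FPKM per library. Loci and named genes were not matched for level, and how much of the gap comes from level or from the choice of features was not tested. The threshold of the choice was narrow for 77 loci whose second-highest level was under 1.1 FPKM. The nearest locus inside had 1.00147 FPKM in its second library, and the nearest outside 0.998987 FPKM. By length, the shortest locus inside had 501 bp and the longest outside 499 bp. The level of 1 FPKM was reached only in both libraries of a single group by 197 loci, namely 78 in Dnd1-KD, 71 in CDGC1, 29 in CDGC6 and 19 in control. Such loci had to differ between groups, so the counts of called loci below describe the set and support no statement about it.

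A small number of loci had very high FPKM. Their means over the 8 libraries reached 10 FPKM in 106 loci, 100 FPKM in 19 and 1000 FPKM in 7. In 15 of the 19, assembled rows under 200 bp held over 50% of the FPKM in at least 1 library, and FPKM of so short a row rests on a very small length. The highest mean, 26960 FPKM, lay at chr2:4955048-4959659 over the pseudogenes Gm13192 and Gm13193. Its levels were 56954 and 77464 FPKM in control, 530 and 75843 in Dnd1-KD, 1047 and 136 in CDGC1, and 3268 and 439 in CDGC6. The libraries of 1 group thus stood far apart, most of all in Dnd1-KD, and no comparison of this locus passed. Over the pseudogene Gm5526 (chr1:45857704-45873459) the levels were 295 and 246 FPKM in control, 22595 and 26348 in Dnd1-KD, 3114 and 4339 in CDGC1, and 17682 and 34789 in CDGC6. The log2 difference from control was 6.49 ± 0.37 (SE) in Dnd1-KD, with a limma adjusted p of 0.000941. With rows under 200 bp left out, Dnd1-KD and CDGC6 had no row here and were set to 0. The difference in Dnd1-KD was then -8.08 (limma adjusted p = 0.175) and the call was lost. That value comes from the rows left out and is not a measured fall.

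The 4 loci of high FPKM without such short rows were 2 small intergenic ones, the mitochondrial genome and Gm4204. High FPKM could still rest on few fragments, as implied by the FPKM intervals. At the locus near Zfp263 they numbered 56.0 and 11.9 in Dnd1-KD, and over Gm4204 22.2 to 39.2 in each library with a row. At chr3:5860333-5860922, 590 bp long and 284 kb from Pex2, levels were 1679 and 1491 FPKM in control, 2833 and 3225 in Dnd1-KD, 1907 and 1538 in CDGC1, and 1319 and 1049 in CDGC6. Dnd1-KD was the highest group here. At chr16:3731210-3731891, 682 bp long and 12.2 kb upstream of Zfp263, levels were 1421 and 1066 FPKM in control, 528 and 261 in Dnd1-KD, 2415 and 1769 in CDGC1, and 2215 and 2307 in CDGC6. Dnd1-KD was the lowest group at this one. The mitochondrial genome, assembled as 1 locus and encoding subunits of the respiratory chain, stood at 642 and 522 FPKM in control, 533 and 483 in Dnd1-KD, 843 and 992 in CDGC1, and 872 and 820 in CDGC6. Both derived lines lay above both kinds of ESC in all libraries. Over Gm4204 (chr1:135232305-135233097) control had 473 and 965 FPKM, Dnd1-KD 953 and 2762, and the derived lines had no row (limma adjusted p = 0.000482 for CDGC1 and 0.00158 for CDGC6 against control).

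Among abundant loci over annotated lncRNAs, AU020206 (chr7:75768901-75782190) was listed in every library. It had 53.3 and 68.5 FPKM in control, 36.6 and 60.7 in Dnd1-KD, 87.4 and 71.7 in CDGC1, and 84.5 and 28.9 in CDGC6, and none of the 4 comparisons passed. Platr3 (chr2:135646486-135655093) had 18.0 and 13.3 FPKM in control, 37.0 and 28.7 in Dnd1-KD, no row and 14.7 in CDGC1, and 106 and 5.82 in CDGC6. Its 2 libraries differed too widely in each derived line for a comparison to pass. Platr27 (chr2:157595267-157597320) lay between 8.40 and 14.9 FPKM in 7 libraries and had no row in the first CDGC1 library. The octamer genes likewise varied within groups. Over Gm21814 levels were 2.29 and 2.74 FPKM in control, 4.20 and no row in Dnd1-KD, 13.9 and 8.15 in CDGC1, and 3.93 and 3.84 in CDGC6 (limma adjusted p = 0.17 for CDGC1 against control). The larger locus over Gm32856 had 4.18 and 9.76 FPKM in control and 25.1 and 41.5 in CDGC6 (limma adjusted p = 0.14), with rows under 200 bp holding up to 88% of it. The genes of this group were picked after their values had been seen.

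**Figure D2:**
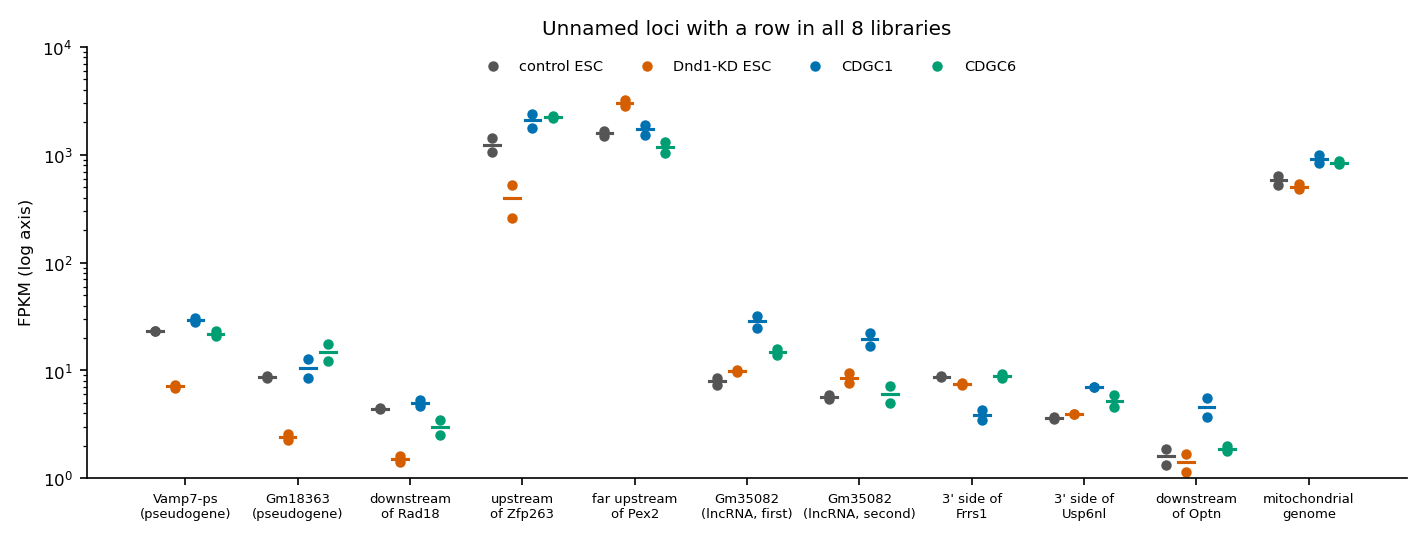
FPKM on a log axis of selected unnamed loci that have a row in all 8 libraries, 1 point per library, coloured by group, with bars at the group means. Over Vamp7-ps the 2 Dnd1-KD libraries lie at 7.36 and 6.91 FPKM, below all others, and over Gm35082 the 2 CDGC1 libraries lie above all others.

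Knockdown of Dnd1 was compared with control ESC, which share its strain and passages. Of the 1621 unnamed loci 124 were called at a limma adjusted p of 0.05, 77 higher and 47 lower in Dnd1-KD. This was 7.65% of the loci, against 21.2% of all 18219 features tested (12.2% higher and 9.09% lower) and 26.1% of named genes. In 75 of the 124 one group had no row. Among the 187 loci with a row in all 8 libraries 15 were called, 8 higher and 7 lower. The median log2 difference was 0.00 over the unnamed loci and over all features. The count came to 80 without the second control library and 189 without the first Dnd1-KD library. The balance of directions was not stable, with 55 higher and 65 lower when only these groups were fitted, 40 and 40 without the second control library, and 65 and 68 or 65 and 69 without a CDGC6 library.

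Among loci listed in every library and free of short rows, called falls reached 1.73 on the log2 scale. One lay over Vamp7-ps (chr2:174046017-174046896), a pseudogene of the vesicle fusion gene Vamp7. Control libraries had 23.4 and 23.3 FPKM, Dnd1-KD 7.36 and 6.91, CDGC1 28.2 and 30.8, and CDGC6 23.1 and 20.7. It fell by 1.58 ± 0.08 (SE) on the log2(FPKM + 1) scale in Dnd1-KD (limma adjusted p = 0.000569) and the call held with each library left out. Over the pseudogene Gm18363 (chr13:19525482-19528183) levels were 8.85 and 8.48 FPKM in control, 2.56 and 2.25 in Dnd1-KD, 8.60 and 12.7 in CDGC1, and 12.2 and 17.6 in CDGC6. It fell by 1.51 ± 0.24 in Dnd1-KD (limma adjusted p = 0.0144), a call that was lost without the first control library (adjusted p = 0.0867). A further locus starts 62 bp past the 3′ end of the named row of Rad18, the ubiquitin ligase that modifies PCNA at damaged DNA. This locus had 4.52 and 4.35 FPKM in control and 1.43 and 1.62 in Dnd1-KD. Its fall of 1.11 ± 0.15 passed (limma adjusted p = 0.00984, and 0.0634 without the first control library), while Rad18 itself was at 14.3 and 13.5 against 15.0 and 14.7 FPKM (limma adjusted p = 0.476).

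Over the non-coding gene Gm10699 levels rose from 1.03 and 1.64 FPKM in control to 4.14 and 7.44 in Dnd1-KD. The difference of 1.51 ± 0.33 passed (limma adjusted p = 0.0332) but was lost in 7 of the 8 fits that leave out 1 library. The locus 57 bp past the named row of Imp4, a gene for a ribosomal RNA processing factor, lies over an annotated Imp4 exon. It went from 8.48 and 9.42 FPKM in control to 13.5 and 15.3 in Dnd1-KD. This rise of 0.63 ± 0.11 passed (limma adjusted p = 0.0187, and 0.101 without the first control library), and Imp4 itself did not pass (40.8 and 41.0 against 40.5 and 40.0 FPKM). The loci of high FPKM near Pex2 and Zfp263 rose by 0.93 ± 0.17 and fell by 1.73 ± 0.38 (limma adjusted p = 0.0227 and 0.0336). These calls were lost in 4 and in 7 of the 8 fits that leave out 1 library, with adjusted p of up to 0.116 and 0.162.

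Most of the 10 loci with the largest called differences lacked a row in 1 group or had most of their FPKM in short rows, and no fold is given where a group has no row. The locus over the lncRNA Gm31793 was an exception, with 1.5 FPKM and no row in control and 15.7 and 64.6 FPKM in Dnd1-KD. It also covers the small nuclear RNA gene Gm23793, so its signal cannot be assigned to the lncRNA. This locus had few implied fragments, with 9.59 in the second Dnd1-KD library, where it was highest, and 0.856 in the first control library. Implied fragments come from the width of the FPKM interval and are not counts, as a value under 1 at a listed row shows. Its difference of 4.39 ± 0.75 passed (limma adjusted p = 0.018, and 0.0906 without the second control library). Over Gm10800 and Gm10801 (chr2:98662828-98667333) Dnd1-KD had 14.9 and 22.4 FPKM and no other group a row. Loci like this one reached 1 FPKM in 1 group only and were chosen through that group, so their values are given without a test. Beside the olfactory receptor gene Olfr814, Dnd1-KD had 7.81 and 10.7 FPKM and CDGC6 5.57 and 6.57, with no row in control or CDGC1 (limma adjusted p = 0.000721 for Dnd1-KD against control). Over Gm4969 (chr7:19111714-19118256) the pattern was the opposite, with 6.31 and 10.4 FPKM in control and no row in the other groups, so that it was chosen through control alone. Over Gm14412 (chr2:177314711-177315808), where short rows held up to 97% of the FPKM, levels were 580 and 566 FPKM in control, 10.7 and 5.10 in Dnd1-KD, 5.71 and 4.34 in CDGC1, and 949 and 562 in CDGC6.

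CDGC1 had more called loci against control than Dnd1-KD had, and most of them lacked a row in 1 group. Of the 1621 loci 298 were called, 105 higher and 193 lower in CDGC1. This was 18.4% of the loci, against 32.8% of all features (14.5% higher and 18.3% lower) and 42.5% of named genes. CDGC1 had no row in 186 of the 298 and control none in 74, and the first CDGC1 library listed the fewest loci of all. Without that library 191 were called, 107 of them higher, and with quantile normalization 156 of 312 were higher (50% against 35.2%). With missing values in place of 0, 55 were higher and 18 lower. Among the 187 loci with a row in all libraries 22 were called, 16 higher and 6 lower. The median log2 difference was -0.39 over the 1621 loci, 0.24 over those 187 and -0.07 over all features.

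Gm35082, an lncRNA on chromosome 7, was covered by 2 separate loci and both rose in CDGC1. The first, at chr7:100675087-100677624 and 66 bp from the RefSeq start of the promoter printed above, had 8.51 and 7.38 FPKM in control, 10.1 and 9.65 in Dnd1-KD, 24.9 and 32.1 in CDGC1, and 15.9 and 14.0 in CDGC6. It was 1.71 ± 0.14 higher in CDGC1 on the log2 scale (limma adjusted p = 0.0012). The second, at chr7:100677728-100680119, had 5.43 and 5.97 FPKM in control, 7.61 and 9.41 in Dnd1-KD, 16.8 and 22.4 in CDGC1, and 7.17 and 4.95 in CDGC6. It was 1.61 ± 0.22 higher (limma adjusted p = 0.00516), and both calls held with each library left out. In CDGC6 the first locus rose by 0.84 ± 0.14 (adjusted p = 0.0305, and 0.15 without the second control library), and the second did not pass (adjusted p = 0.92). The named gene nearest to both, Plekhb1, fell in CDGC1 by 2.08 (limma adjusted p = 0.00051).

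Several called loci lay just past the 3′ end of a gene's named row. Past the end of Frrs1, which encodes a ferric-chelate reductase, the locus chr3:116904552-116908109 had 8.84 and 8.71 FPKM in control, 7.39 and 7.59 in Dnd1-KD, 4.28 and 3.46 in CDGC1, and 8.49 and 9.36 in CDGC6. It fell by 1.01 ± 0.11 (limma adjusted p = 0.00242) and Frrs1 itself fell by 2.35, from 16.1 and 15.0 to 1.72 and 2.88 FPKM. Past Usp6nl, which encodes a Rab GTPase-activating protein, control had 3.69 and 3.53 FPKM and CDGC1 7.05 and 7.06. The locus rose by 0.81 ± 0.12 (limma adjusted p = 0.00681) and Usp6nl by 0.74. Past Optn, an autophagy receptor gene, control had 1.32 and 1.89 FPKM and CDGC1 3.72 and 5.52. The locus rose by 1.1 ± 0.23 (limma adjusted p = 0.0189, and 0.0941 without the first control library) and Optn by 2.08. In these 3 cases the locus and the gene beside it moved in the same direction, and the first 2 calls held with each library left out.

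Smaller rises were called at other loci with a row in every library. Those over Vangl2, the planar cell polarity gene, and Dgkh, a diacylglycerol kinase gene, rose by 0.50 ± 0.11 and 0.72 ± 0.17 in CDGC1 (limma adjusted p = 0.0229 and 0.0293), and both calls were lost with some library left out (highest adjusted p 0.109 and 0.127). The mitochondrial locus rose by 0.66 ± 0.14 (adjusted p = 0.0196, and 0.0799 without the second control library). Of the loci that control lacks, Ccr1's neighbour at chr9:123935352-123937250 had 8.80 and 17.2 FPKM in CDGC1 and no row elsewhere. The lncRNA Gm30414 had 11.2 and 12.6 FPKM in CDGC1, 0.576 FPKM in the first control library and no row in the remaining 5. Both were chosen through CDGC1 alone. At Platr11 the CDGC1 libraries had 561 and 134 FPKM against 6.16 to 34.1 elsewhere, with short rows holding up to 97%. Its rise of 3.61 ± 0.97 (adjusted p = 0.0429) turned to -0.37 (adjusted p = 0.744) without rows under 200 bp.

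**Figure D3:**
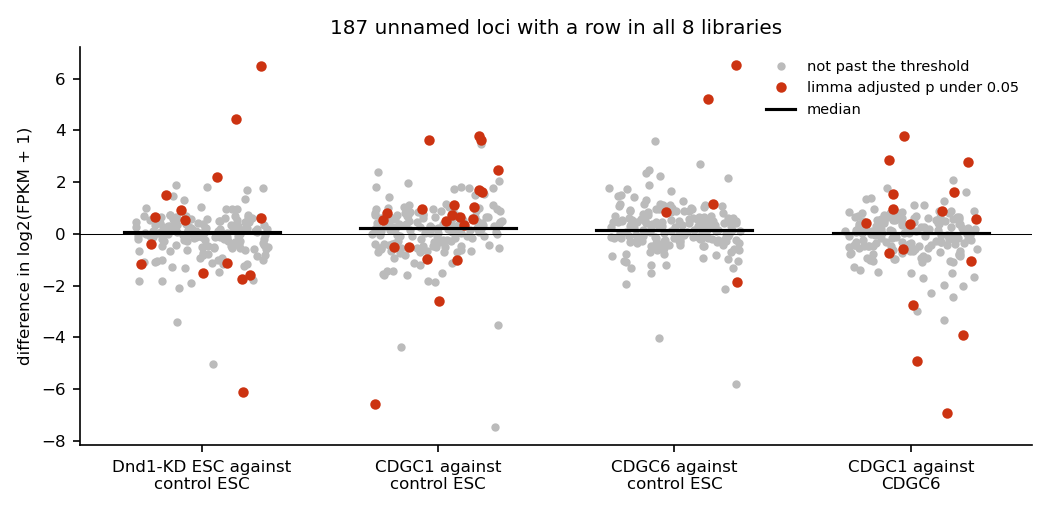
Difference in log2(FPKM + 1) of the 187 unnamed loci with a row in all 8 libraries in the 4 comparisons, 1 point per locus, with those called by limma (adjusted p under 0.05) in red and bars at the medians. The called loci number 15, 22, 5 and 17 from left to right.

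CDGC6 differed from control at fewer unnamed loci. Of the 1621, 91 were called, 38 higher and 53 lower. This was 5.61% of the loci, against 9.31% of all features (3.96% higher and 5.35% lower) and 10.0% of named genes. In 70 of the 91 one group had no row, and among the 187 loci with a row everywhere 5 were called, 4 higher and 1 lower. The balance turned to 47 higher and 28 lower without the first CDGC6 library, 46 and 38 without the second, and 17 and 6 with missing values in place of 0. With the replicate number as a block 54 were called, 27 in each direction. The 3 comparisons against control share its 2 libraries, so their calls are not independent.

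A locus 20.9 kb from Mfap3 (chr11:57554723-57555420) lies between genes in GENCODE and over the lncRNA Gm51895 in RefSeq. It had 14.8 and 16.2 FPKM in CDGC6 and no row in any other group. Over Gm40457 CDGC6 had 9.60 and 4.89 FPKM, again with no row elsewhere, and both loci were chosen through CDGC6 alone. Over 9430081H08Rik (chr9:44378661-44379337), beside the ER chaperone gene Hyou1, levels were 0.942 and 1.20 FPKM in control, 1.08 and 1.68 in Dnd1-KD, 1.65 and 1.92 in CDGC1, and 3.80 and 3.43 in CDGC6. CDGC6 was the highest group, with a rise of 1.16 ± 0.17 (limma adjusted p = 0.0219, and 0.111 without the first control library). At Grem1, which encodes a BMP antagonist, CDGC6 had 11.3 and 5.07 FPKM and CDGC1 2.51 and 4.02, control had no row, and Dnd1-KD had 0.885 FPKM in 1 library (limma adjusted p = 0.0219 for CDGC6 and 0.0256 for CDGC1, and 0.12 and 0.111 without the first control library).

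The derived lines differed from each other at 276 loci, 110 higher and 166 lower in CDGC1. This was 17.0% of the loci, against 29.1% of all features (13.7% higher and 15.4% lower) and 38.2% of named genes. One line had no row in 250 of the 276, and 172 were called without the first CDGC1 library, 101 of them higher. Of the 187 loci with a row in all libraries 17 were called, 10 higher and 7 lower. The locus beside Med13, a subunit of the Mediator kinase module, had 18.0 and 15.8 FPKM in CDGC1 and 5.61 and 4.03 in CDGC6, with 6.20 and 9.27 in control and 11.6 and 11.7 in Dnd1-KD. It was 1.63 ± 0.22 higher in CDGC1 than in CDGC6 (limma adjusted p = 0.00572), and the call held with each library left out. The second Gm35082 locus was 1.55 ± 0.22 higher (adjusted p = 0.00683), and the Frrs1 locus 1.03 lower in CDGC1 (adjusted p = 0.00289).

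Gene lists for pluripotency, formative and primed cells, imprinting, 2-cell-like cells and X inactivation were used to find unnamed loci beside well-known genes, within 100 kb. Of the 31 pluripotency genes 5 had such loci, 9 in all. Of the 19 formative genes 4 had 6 loci, and of the 30 imprinted genes 5 had 8. The 20 2-cell-like and 4 X inactivation genes had none. Called shares over all features were 12.2% higher and 9.09% lower in Dnd1-KD, 14.5% and 18.3% in CDGC1, and 3.96% and 5.35% in CDGC6. Against control, 1 of the 9 pluripotency loci was called higher in CDGC1 and none in Dnd1-KD or CDGC6. Of the 6 formative loci 1 was called lower in Dnd1-KD and 1 higher and 1 lower in CDGC1, and none passed in CDGC6. Of the 8 imprinted loci 2 were called lower in CDGC1 and 2 higher in CDGC6, and 4 were lower in CDGC1 than in CDGC6 (15.4% of all features). The pluripotency call, the formative call higher in CDGC1, 1 of the 2 imprinted calls in CDGC6 and 2 of the 4 between the lines came from loci chosen through the higher group alone.

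Imprinted loci lay mostly in the Dlk1-Dio3 domain of chromosome 12, where Meg3 and Mirg are non-coding RNAs of the maternal allele and Rtl1 comes from the paternal allele. A locus 3561 bp downstream of Meg3 (chr12:109575290-109579338) lies over Rtl1 in RefSeq, as does the locus beside Rtl1 given below. The locus near Meg3 had 2.02 and 2.03 FPKM in control, 0.713 and no row in Dnd1-KD, no row in CDGC1, and 9.97 and 6.65 in CDGC6 (limma adjusted p = 0.0163 for CDGC1 and 0.043 for CDGC6 against control, and 0.00246 between the derived lines). Only the last held with each library left out. Meg3 itself had 1075 and 1068 FPKM in control, 925 and 1053 in Dnd1-KD, 0.122 and 1.29 in CDGC1, and 2818 and 2768 in CDGC6, so CDGC1 was the lowest group and CDGC6 the highest in both. Beside Rtl1 control had 4.96 and 6.89 FPKM, Dnd1-KD 2.11 and no row, and CDGC6 7.38 and 2.78, while CDGC1 had no row (limma adjusted p = 0.0278 for CDGC1 against control, 0.131 without the second control library). Upstream of Meg3, a locus over Gm34081 was listed only in CDGC6, at 2.31 and 3.85 FPKM. At Mirg CDGC6 had 2.96 and 1.34 FPKM, 1 control library 0.773, and CDGC1 no row. Both of these loci were chosen through CDGC6 alone. CDGC1 had no row at any of the 6 unnamed loci whose nearest named gene was Meg3, Rtl1 or Mirg.

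Beside pluripotency genes the locus counted as higher in CDGC1 was at Lin28b, the inhibitor of let-7 maturation. It starts 43 bp from the gene and had 3.08 FPKM in both CDGC1 libraries, through which it was chosen, with no row in any other. Lin28b itself was at 22.8 and 21.2 FPKM in CDGC1 and between 9.28 and 13.4 FPKM in the other groups. The 3 loci beside Zfp42 (Rex1, a marker of naive cells), the 3 beside Dppa2 and the 1 beside Gdf3 had no row in CDGC1, and none passed in any comparison. The locus beside Lefty2, an inhibitor of Nodal signalling, lies over the lncRNA Gm39714 in RefSeq. This locus had 1.66 FPKM in the second CDGC1 library, 1.73 and 1.76 in CDGC6 and no row in either kind of ESC, and did not pass either (limma adjusted p = 0.124 for CDGC6 against control). Lefty1 and Lefty2, joined in the tables, had 217 and 288 FPKM in CDGC1 and 50.8 and 55.1 in control. Zfp42 and Dppa2 themselves had 335 and 352, and 65.4 and 59.2 FPKM in control, against at most 0.022 and 0.485 FPKM in CDGC1.

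Formative and gastrula genes showed both directions. Over Gm33460, beside Eomes, a T-box gene of mesendoderm, a locus 184 bp from the gene had 2.73 and 1.34 FPKM in CDGC1, through which it was chosen, and no row elsewhere, and Eomes was at 68.4 and 80.0 FPKM there against 2.37 to 15.4 in the other groups. A second locus, 977 bp away, had 1.58 and 5.0 FPKM in CDGC1 and 2.63 FPKM in 1 CDGC6 library and did not pass (adjusted p = 0.094). At Pou3f1 (Oct6) a locus had 2.14 and 1.92 FPKM in control, no row in Dnd1-KD, 3.24 and 2.87 in CDGC1, and 3.57 and 1.19 in CDGC6 (limma adjusted p = 0.0348 for Dnd1-KD, and 0.153 without the first control library), with Pou3f1 falling by 1.27. Beside Dnmt3l, the cofactor of the de novo DNA methyltransferases, control had 2.85 and 3.03 FPKM and CDGC1 no row (limma adjusted p = 0.0247, and 0.109 without the second control library), and Dnmt3l itself fell by 7.11 in CDGC1.

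**Figure D4:**
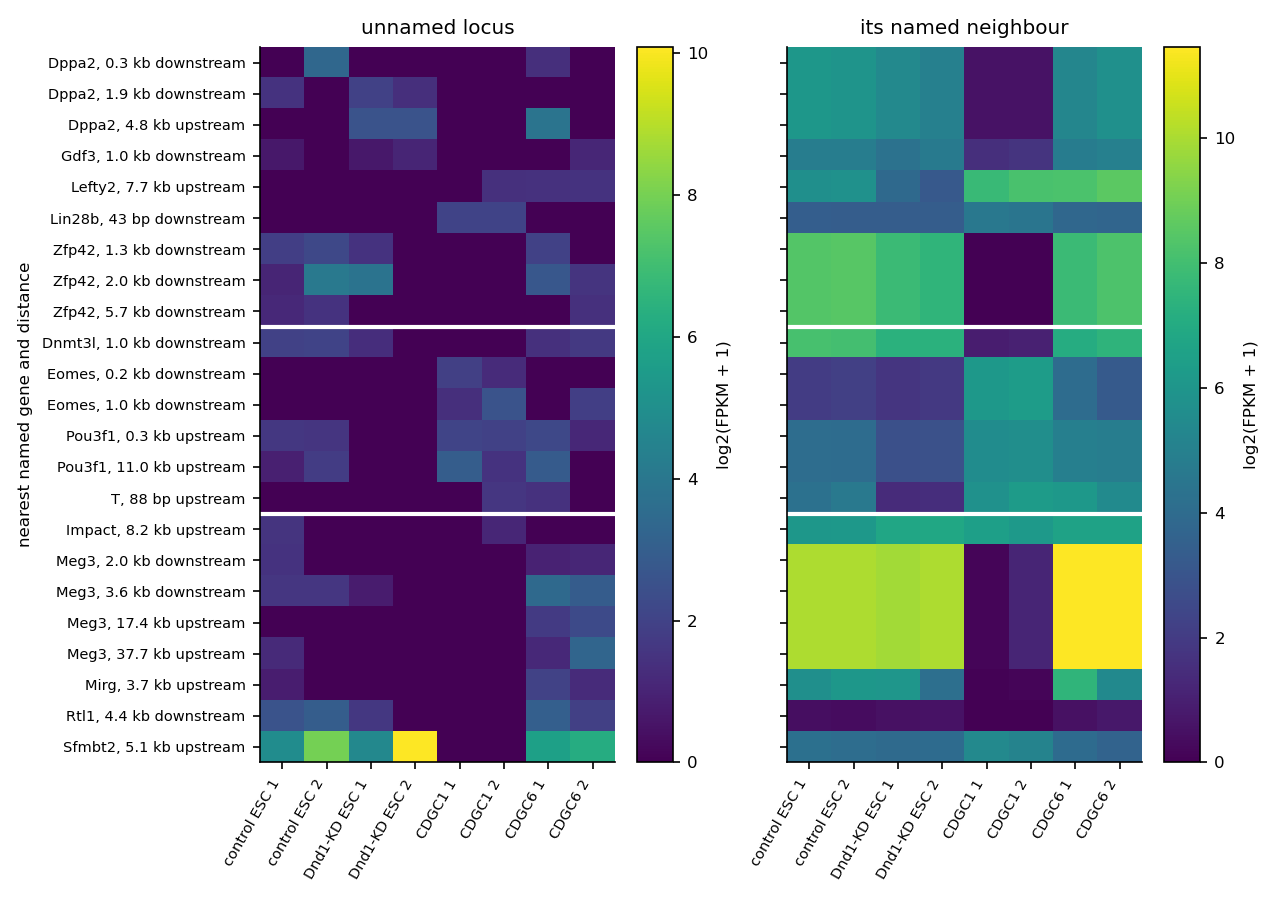
Level as log2(FPKM + 1) in the 8 libraries of unnamed loci beside genes of the lists (left, labelled by nearest gene and distance) and of those named genes (right). The unnamed loci beside Meg3 and Rtl1 are dark in both CDGC1 libraries, where Meg3 itself is at 0.122 and 1.29 FPKM.

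Unnamed loci downstream of a named gene were set beside that gene in the same comparison. Within 5 kb downstream 679 loci had a neighbour that was tested too. Pearson's r between the 2 log2 differences was 0.25 for Dnd1-KD, 0.41 for CDGC1 and 0.15 for CDGC6, each against control, and 0.36 for CDGC1 against CDGC6. These describe points that share libraries and are not independent. Of the 679 neighbours 182, 296 and 77 were called in Dnd1-KD, CDGC1 and CDGC6 against control. In CDGC1 80 of the loci were called, against 32.8% of all features. Of these, 58 lay beside a called gene, and in 54 of the 58 both moved in the same direction. In Dnd1-KD 35 were called, against 21.2% of all features, 13 of them beside a called gene and 9 in the same direction. In CDGC6 24 were called, against 9.31% of all features, with 5 beside a called gene and 4 in the same direction. Of the 90 loci that also had a row in every library and no short rows, 10 were called in CDGC1, 7 of them beside a called gene, all in the same direction. Of their 90 neighbours 34 were called in CDGC1. In Dnd1-KD 5 of the 90 loci were called, 0 of them beside a called gene, and in CDGC6 0 were called. Between the derived lines 5 were called, 3 of them beside a called gene and in the same direction.

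Some of the loci described above did not follow their nearest gene. Both Gm35082 loci rose in CDGC1 while Plekhb1 fell, and the Rad18 locus fell in Dnd1-KD while Rad18 did not pass. The A630089N07Rik locus (chr16:98059718-98060520) moved with its gene, at 3.98 and 3.76 FPKM in control and 1.32 and 1.64 in CDGC1. It fell by 0.97 ± 0.15 (limma adjusted p = 0.0073) and the gene by 3.14.

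**Figure D5:**
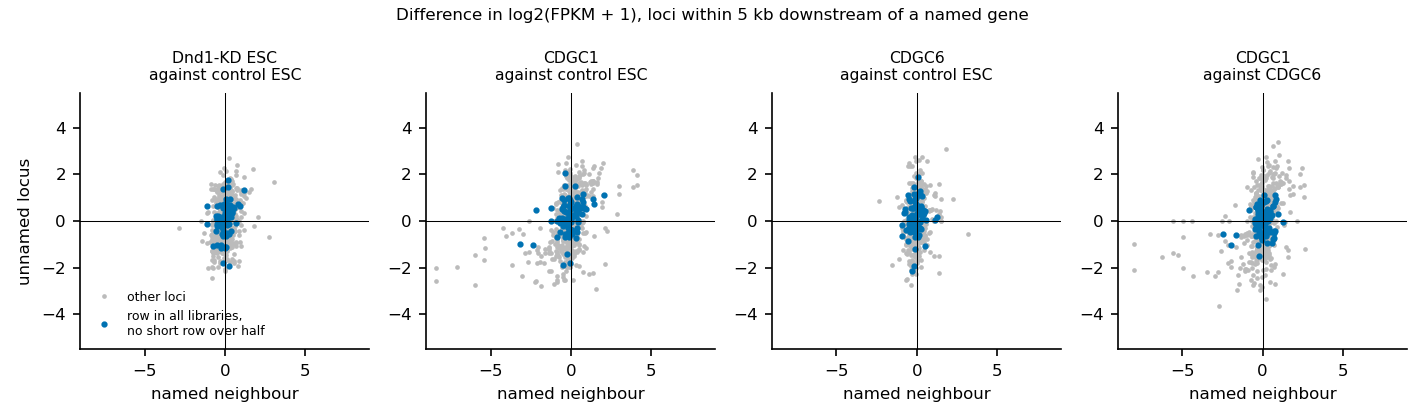
Difference in log2(FPKM + 1) of 679 unnamed loci within 5 kb downstream of a named gene (vertical axis) against that of the gene (horizontal axis), 1 panel per comparison, with loci listed in all libraries and without short rows in blue. The largest r of the 4 panels, 0.41, is that of CDGC1 against control.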

How the data were processed

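The authors deposited 1 gene table per library. Its FPKM values come from Cufflinks, per the file headers, which also give an interval around each value, and the submitters' processing notes list mm10, Bowtie, TopHat2, Cufflinks and Cuffdiff without versions or roles. RNA was total RNA, and libraries were made with the TruSeq RNA v2 kit, which does not mark strand. Each library was assembled alone, so a locus without a row was set to 0, which can be a failed assembly and not an absence of RNA.

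Rows without a gene name were merged over libraries wherever intervals overlapped, and FPKM was summed per locus and library. Read counts were not used here, so depth and implied fragments were derived from FPKM and its interval and are not counts. Small RNA genes (1058 units) were left out of the named genes. Differences were fitted with limma 3.58.1 in R 4.3.3 (lmFit, eBayes with trend, 1 mean per group over 8 libraries, two-sided) on log2(FPKM + 1), a scale that understates changes of low loci. Benjamini-Hochberg adjustment ran over all 18219 features that reached 1 FPKM in 2 libraries, 11894 of them named, 1621 the loci described and 4704 other unnamed loci, with a threshold of 0.05. The fit was also run on simulated data in which no group was set to 0 for lack of a row. That run therefore does not check the calls at loci without a row in a group. Tables were made with Python 3.11.15 and pandas 2.3.3. Loci were annotated with GENCODE vM21 and sequences taken from RefSeq (GRCm38.p6).

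Loci were named by rule when they were among the 5 largest rises or falls of a comparison that passed without overlap of libraries, the 10 with the highest mean, the 5 longest, the 10 highest over an annotated exon, or near a listed gene. 1 gene of the formative list and the loci beside it are not reported here. Loci called with a row in all 8 libraries, and the lncRNAs and loci that moved in opposite directions, were added after their values were seen. The loci, the lists and the tests were chosen with earlier results of these data known. The alternatives were other pseudocounts, filters and normalizations, a block for the replicate number, fewer groups, other locus definitions, and each library left out in turn.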

Additional observations from a re-analysis of the deposited data

Results flagged for a closer look

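At 5 unnamed loci the derived lines moved in opposite directions from control, each past the limma threshold in both lines. All of them lack a row in at least 1 group, so the sizes depend on the pseudocount. The difference between the 2 effects is the comparison of CDGC1 with CDGC6. The locus chr10:45160108-45164036 lies 1113 bp downstream of the named row of Prep, a prolyl endopeptidase gene, and over an annotated Prep exon. Levels there were 1.36 and 1.32 FPKM in control, 4.21 and 7.35 in Dnd1-KD and 8.36 and 8.12 in CDGC1, with no row in CDGC6. The log2 difference was 1.98 in CDGC1 and -1.23 in CDGC6, which differ by 3.21 (limma adjusted p = 0.00109). Beside Meg3 and over Rtl1 of RefSeq (chr12:109575290-109579338) it was -1.60 in CDGC1 and 1.60 in CDGC6, a difference of -3.20. At chr2:177086464-177086994 over Gm14401, made of rows under 200 bp, it was -2.38 and 2.54, a difference of -4.92. At chr7:42575590-42580930 over Gm21028 and Zfp977 it was -0.98 and 1.71, a difference of -2.69. At chrX:42489775-42491525 over Tex13c2, control had 1.53 and 1.05 FPKM and CDGC6 6.09 and 4.95, with no row in Dnd1-KD or CDGC1, and the values were -1.19 and 1.51, a difference of -2.70. Against control, the call of CDGC6 was lost without the first control library at the first 4 of these loci (adjusted p = 0.172, 0.175, 0.115 and 0.0935). The call of CDGC1 was lost without the first control library beside Meg3 (0.0792) and without the second at Gm14401 (0.0517) and at Gm21028 and Zfp977 (0.126). At Prep the CDGC1 call, and at Tex13c2 both calls, held with each library left out. The comparison of CDGC1 with CDGC6 held with each library left out at all 5.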

How the results depend on the processing

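The order below is Dnd1-KD, CDGC1 and CDGC6 against control, then CDGC1 against CDGC6. The loci called came to 33, 106, 31 and 83 with a minimum of 5 FPKM, which leaves 418 loci, and to 62, 73, 23 and 55 with missing values in place of 0. Among loci of at least 1000 bp, 1051 in number, 74, 58 and 179 were called in Dnd1-KD, CDGC6 and between the derived lines. Without a filter on the other features Dnd1-KD had 75. An alternative chosen after seeing the data, the 187 loci with a row in all 8 libraries, gave 15, 22, 5 and 17. Leaving out each library gave 80 to 189, 191 to 327, 65 to 129 and 172 to 283. With the replicate number as a block the counts were 92, 270, 54 and 247. Same-numbered libraries of different groups deviated together with r of -0.04 to 0.12 over named genes and -0.05 to 0.21 over the unnamed loci, highest for control with Dnd1-KD in both. Most pairs of groups lay under 0.1, so the numbers were not taken to pair the libraries. Of 130 called single-locus results 65 kept their call with every library left out, and 65 lost it at least once.

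Of 9104 single-locus values under the alternatives 8526 kept direction and call, 417 lost it, 150 gained it and 11 reversed. The mitochondrial locus turned to 0.77 in Dnd1-KD when only the highest row of a locus was used. The others reversed without rows under 200 bp, an alternative chosen after seeing the data. They were Gm5526 (-8.08, -2.28, -8.08 and 5.80), the locus of 219747 bp at chr12:20196625-20416371 (0.70 in Dnd1-KD and 0.0041 in CDGC6), chr2:177086464-177086994 (-0.49 in Dnd1-KD), Gm10020 (-4.97 in CDGC1) and Platr11 (-0.37 in CDGC1 and -0.21 between the derived lines). At Gm5526 no row was then left in Dnd1-KD or CDGC6, and at Gm10020 none in CDGC1. These groups were set to 0, so -8.08, 5.80 and -4.97 are not measured differences. The cause was not tested beyond this. The lowest listed unnamed level was 0.104 to 0.590 FPKM. It was lowest in the deepest libraries, with 0.104 FPKM at 17.7 M fragments and 0.164 FPKM at 18.0 M. The highest were 0.590 FPKM in the first CDGC1 library at 11.9 M and 0.448 FPKM in the second Dnd1-KD library at 10.7 M. Those were the shallowest libraries, but the levels were not strictly in the order of depth.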

Other observations

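Unnamed loci over coding genes that the tables do not name had 0 higher and 21 lower of 100 in CDGC1 against control, where 14.5% of all features were called higher and 18.3% lower. Those over exons of genes named elsewhere in the tables had 26 higher and 17 lower of 315, and lncRNA loci 17 higher and 34 lower of 235. In Dnd1-KD the same classes had 6 higher and 8 lower, 13 higher and 5 lower, and 6 higher and 6 lower, beside 12.2% and 9.09% of all features. These are counts without a test of the classes.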
